A study of Mus musculus with 58 samples.

Results

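The homeostatic microglia genes are 10 genes that resting microglia of the healthy brain express, namely *Cx3cr1*, *P2ry12*, *P2ry13*, *Tmem119*, *Csf1r*, *Aif1*, *Itgam*, *Gpr34*, *Siglech* and *Selplg*. They were chosen by symbol, and all 10 were found among the 31246 genes listed for each of 2 brain regions. Microglia are the resident macrophages of the brain. In the healthy tissue they survey their surroundings with motile processes, and they depend on signals through the receptor encoded by *Csf1r* for survival. The purinergic and chemokine receptors of the list sense nucleotides from damaged cells and a neuronal chemokine, and the levels of many of these genes are known to drop when microglia become activated.

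RNA-sequencing was performed on 2 brain regions, the entorhinal cortex (EC) and primary visual cortex (PVC), of male *APOE* targeted replacement mice on a C57Bl/6 background, aged 14 to 15 months. There were 10 *APOE3/3* and 19 *APOE3/4* mice, and the same 29 mouse numbers were used in both regions, which gave 58 libraries. Per the sample descriptions, 2 EC libraries (1 per genotype) and 5 PVC libraries (1 *APOE3/3* and 4 *APOE3/4*) were run more than once. Both genotypes carry human *APOE* in place of the mouse gene under the mouse promoter, and according to the methods the mice of the study came from 2 colonies, whose split over these libraries is not given in the sources used here. The EC was chosen as a region vulnerable to Alzheimer's disease and the PVC as a resistant one. The value used for each gene and region was the authors' mean normalized count, which is the mean over all libraries of that region of the read count divided by the library's size factor. This mean pools both genotypes, with *APOE3/4* mice making up 65.5% of it, so it holds no comparison of the genotypes and no spread between mice. No test could therefore be made, and each difference below is a description of 2 means.

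The tables of the 2 regions were normalized separately. Their mean normalized counts came to 49385488 (EC) and 27058393 (PVC) in all, and the median gene was 1.86-fold higher in the EC table, over the 15642 genes whose level reached 10 in both. This common factor was divided out, and the log2 ratio that is left is called the relative ratio, which is 0 for the median gene. Genes known to mark the regions differed between the tables in the direction of the labels. *Reln*, a secreted glycoprotein of layer II cells in the EC, had a relative fold of 3.34 in favour of the EC. *Rspo1*, a Wnt agonist of layer 4 of sensory cortex, had a relative fold of 24.5 in favour of the PVC, at mean normalized counts of 29.1 (EC) and 384 (PVC). It was named after its value was seen and was the most extreme of 3 layer 4 markers. Their relative ratios ran from −4.61 to −0.36, and their median relative fold was 2.33 in favour of the PVC.

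All 10 homeostatic microglia genes had nearly the same relative level in both regions. Their relative ratios ran from 0.01 for *Tmem119* to 0.15 for *Csf1r* on the log2 scale, with a median of 0.05, or 1.04-fold. Over all genes compared the median was 0.00, and the 25th and 75th percentiles were −0.14 and 0.16, so that every one of the 10 lay within the middle of the distribution. None was more than 25% higher in either region, where 14.4% of all genes were so in the EC and 11.1% in the PVC. These limits are called the 25% limit. The relative ratio was above 0 for all 10, as for 50% of all genes by construction, but for 6 of the 10 when genes below the minimum count were also used to set the common factor. *P2ry13*, *Tmem119*, *Aif1* and *Selplg* were then just below 0. In bulk tissue, fewer cells of a type and less RNA per cell cannot be told apart, and this holds for equal levels too.

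**Figure D1:**
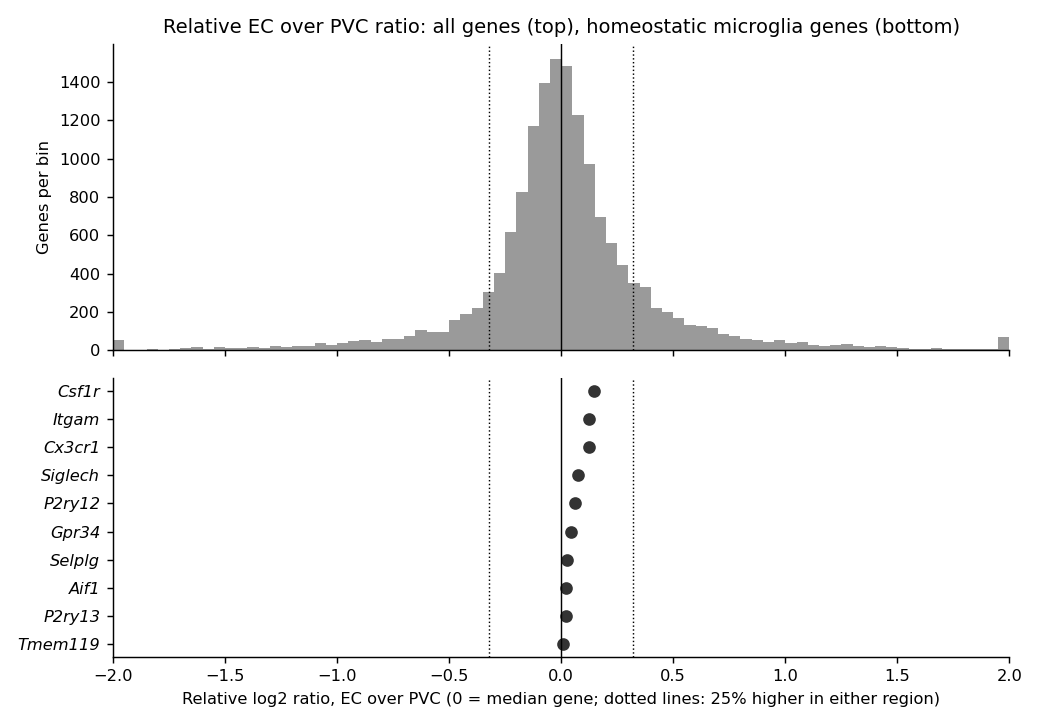
Relative log2 ratio of EC over PVC, with the number of genes per bin for all 15642 genes compared in the upper panel (values beyond the axis are collected in the end bins) and 1 point for each of the 10 homeostatic microglia genes in the lower panel. The points lie between 0.01 and 0.15, inside the dotted lines that mark the 25% limit.

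The survival receptor *Csf1r*, a receptor tyrosine kinase for the cytokines CSF1 and IL-34, was the most abundant of the 10 genes per kb of exon. Its mean normalized count was 5321 (EC) and 2587 (PVC), and its relative ratio of 0.15 stood at percentile 73.2 of all genes. It was the only one of the 10 whose exons overlap those of another annotated gene. *Hmgxb3* lies on the opposite strand and shares 871 bases, or 16.7%, of the exon sequence of *Csf1r*. The library kit does not mark the strand, so reads from those bases cannot be told apart. The methods do not say how such reads were counted. The level per kb of *Csf1r* divides by all 5229 exon bases, the shared ones included. *Hmgxb3* itself had a relative ratio of −0.01.

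Both ligands of this receptor were measured. *Il34* had a mean normalized count of 2775 (EC) and 1287 (PVC), with a relative ratio of 0.22. *Csf1* had 937 (EC) and 569 (PVC), with a relative ratio of −0.17. The ligands thus stood on opposite sides of the median gene. A ratio of 2 genes within a region does not depend on the factor between the tables, and per kb of exon *Il34* was 7.96-fold above *Csf1* in the EC and 6.08-fold above it in the PVC. Set against the receptor per kb, *Il34* was 1.39-fold (EC) and 1.33-fold (PVC), and *Csf1* was 0.175-fold and 0.219-fold.

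*Cx3cr1*, the receptor for the neuronal chemokine fractalkine, had a mean normalized count of 2636 (EC) and 1303 (PVC) and a relative ratio of 0.12, at percentile 70.6. *Cx3cl1*, which encodes fractalkine, went the other way, with 33794 in the EC, 21464 in the PVC and a relative ratio of −0.24. Per kb, the ligand was 12.9-fold above its receptor in the EC and 16.6-fold above it in the PVC. That ratio was 1.29-fold higher in the PVC, the largest shift between regions of the ligand and receptor pairs examined.

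The purinergic receptor genes *P2ry12* and *P2ry13*, whose proteins respond to ADP, and the related receptor gene *Gpr34*, whose protein responds to lysophosphatidylserine, kept their proportions in both regions. *P2ry12* had a mean normalized count of 1627 (EC) and 839 (PVC), with a relative ratio of 0.06. *P2ry13* had 599 and 318, with 0.02, and *Gpr34* had 499.7 and 261, with 0.04. Per kb, *P2ry12* was 2.88-fold above *P2ry13* in the EC and 2.80-fold above it in the PVC, and *P2ry13* and *Gpr34* were nearly equal, with ratios of 0.992 and 1.01. *Entpd1*, the ectonucleotidase CD39 that removes ATP and ADP outside the cell, had a relative ratio of 0.01. *Nt5e*, which makes adenosine from AMP, had one of 0.26 at the lower means of 252 (EC) and 114 (PVC). *Abhd16a*, listed under its older symbol *Bat5*, and *Abhd12*, which make and degrade lysophosphatidylserine, had relative ratios of −0.14 and −0.22.

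*P2ry13* and *P2ry12* are neighbours on the minus strand of chromosome 3 of NCBIM37, from 59011818 to 59014804 and from 59020193 to 59066753, with 5389 bases between them. Both lie within the span of *Med12l*, which is on the plus strand, but share no exon bases with it. Their promoters are shown because the 2 receptor genes are neighbours and had nearly the same relative ratio. Each window, from RefSeq on GRCm38.p6, a later build than that of the gene positions, runs from 250 bases before to 50 bases after the start site, 5′ to 3′ on the minus strand. The windows are chr3:59210833-59211132 for *P2ry13* and chr3:59262936-59263235 for *P2ry12*. Capitals mark GAGGAA and AGGAAGT on either strand. Both are parts of GAGGAAGT, the purine-rich string that the microglial transcription factor PU.1 can recognise.
P2ry13: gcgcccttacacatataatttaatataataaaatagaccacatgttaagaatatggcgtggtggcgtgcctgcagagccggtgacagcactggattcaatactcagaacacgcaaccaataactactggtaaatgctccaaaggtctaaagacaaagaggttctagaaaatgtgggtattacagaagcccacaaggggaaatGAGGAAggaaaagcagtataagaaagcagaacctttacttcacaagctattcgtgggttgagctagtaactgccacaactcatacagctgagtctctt
P2ry12: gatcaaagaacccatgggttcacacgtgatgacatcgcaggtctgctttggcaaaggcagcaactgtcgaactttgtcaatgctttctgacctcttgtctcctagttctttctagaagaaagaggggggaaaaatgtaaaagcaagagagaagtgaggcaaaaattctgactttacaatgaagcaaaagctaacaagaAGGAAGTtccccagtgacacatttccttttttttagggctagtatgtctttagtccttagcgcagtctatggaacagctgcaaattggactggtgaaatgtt
GAGGAA stood 48 bases before the start site of *P2ry13*, and AGGAAGT 52 bases before that of *P2ry12*. Neither window held the whole GAGGAAGT, and nor did any other of the 6 promoter windows found for the 10 genes, against 3.2% of all 32851 windows. In all, 10 strings were searched on both strands, several of them parts of one another. GAGGAA was in 4 of the 6 windows (*Aif1*, *Itgam*, *P2ry13* and *Siglech*) against 28.3% of all windows, and GAGGAAG in 2 against 13.6%. AGGAAGT was in 1 against 9.35%, CAGCTG in 3 against 16.3% and GGGCGG in 1 against 35.7%. GGAA was in all 6 against 96% of all windows, and GGGGAAGT, TATAAA and TGACTCA were in none, against 1.48%, 13.6% and 5.2%. With 6 windows and 10 strings, no string is singled out, and a match of letters is a description, not a binding site. The gene of PU.1, listed under the older symbol *Sfpi1*, had a mean normalized count of 138 (EC) and 66.8 (PVC) and a relative ratio of 0.15.

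*Itgam* encodes the alpha chain of the complement receptor CR3, known as CD11b. Its mean normalized count was 1418 (EC) and 701 (PVC), with a relative ratio of 0.12, at percentile 70.7. *Itgb2*, the beta chain that pairs with it, had 323 and 167 and a relative ratio of 0.06. Per kb, *Itgb2* was 0.476-fold of *Itgam* in the EC and 0.498-fold in the PVC, so that both chains kept nearly the same proportion.

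Of the remaining surface and cytoskeletal genes, *Tmem119*, *Aif1* and *Selplg* were close to the median gene and *Siglech* was somewhat above it. *Tmem119*, a transmembrane protein used to tell microglia from blood-derived macrophages, had a mean normalized count of 1018 (EC) and 545 (PVC) and the lowest relative ratio, 0.01, at percentile 51.9. *Selplg*, the P-selectin ligand PSGL-1, had 1418 and 749.9, with 0.03, while *Selp*, which encodes P-selectin, was below the minimum in both regions, at 1.02 and 0.257. *Siglech*, a sialic acid-binding lectin that signals through the adaptor DAP12, had 906 and 464, with a relative ratio of 0.07. *Tyrobp*, which encodes DAP12, had one of 0.02. *Aif1* encodes the actin-bundling protein Iba1, the usual immunostaining marker of microglia. It had the lowest level of the 10 genes per kb of exon. Its mean normalized count was 190.1 (EC) and 101 (PVC), with a relative ratio of 0.02. *Lcp1*, an actin-bundling partner of Iba1 found in many leukocytes, had a relative ratio of 0.21. Of the 12 ligands and partners named, *Tgfb1*, a cytokine that maintains the homeostatic state of microglia, had the highest relative ratio among those above the minimum, 0.28, with 224 (EC) and 98.9 (PVC). None of the 11 above the minimum was past the 25% limit, apart from *Tgfb1*, in favour of the EC, when housekeeping genes set the factor.

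**Figure D2:**
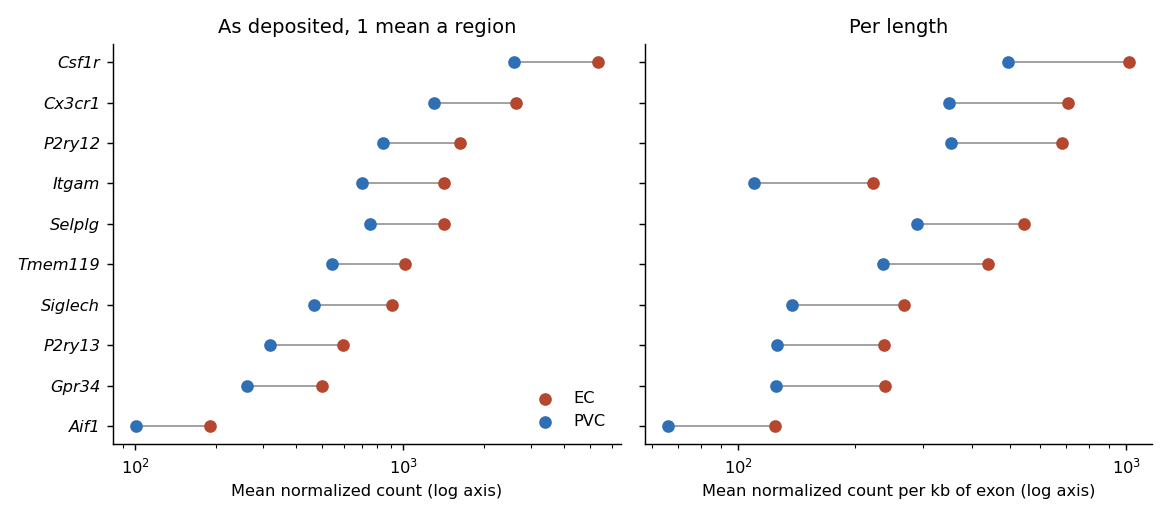
Authors' mean normalized count of each homeostatic microglia gene in the EC (red) and the PVC (blue), on log axes, as deposited on the left and per kb of merged exon on the right, with the genes in the same order in both panels. Every EC point lies to the right of its PVC point by nearly the same distance, close to the 1.86-fold of the median gene.

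Per kb of exon, the order in the EC was *Csf1r* (1018 per kb), *Cx3cr1* (707), *P2ry12* (684), *Selplg* (545), *Tmem119* (439.9), *Siglech* (268), *Gpr34* (239), *P2ry13* (237), *Itgam* (222) and *Aif1* (124), against a median of 308 per kb for all genes compared. In the PVC *Csf1r* again led, with 495 per kb, and *Aif1* was last, with 65.8, against a median of 168. The range from first to last was 8.20-fold (EC) and 7.52-fold (PVC). In both regions 6 of the 10 genes held the same rank. The neighbours *Cx3cr1* and *P2ry12*, and *Gpr34* and *P2ry13*, exchanged places, being within 1.03-fold of each other, a gap that cannot be weighed against the spread between mice.

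The makeup of the list was also alike. *Csf1r* made up 22.7% (EC) and 21.7% (PVC) of the 10 summed genes per kb, the largest difference, 1.03 percentage points. The shares of *Cx3cr1* were 15.8% and 15.3%, and those of *P2ry12* were 15.3% and 15.4%. For 9 of the 10 genes the share differed by less than 1 percentage point, and the first 3 genes together made up 53.7% (EC) and 52.4% (PVC). As counts, the 10 genes together took 0.0317% of all mean normalized counts (EC) and 0.0291% (PVC). The shares within the 10 genes do not depend on the factor between the tables. Setting the shares of all counts side by side amounts to scaling by summed counts.

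**Figure D3:**
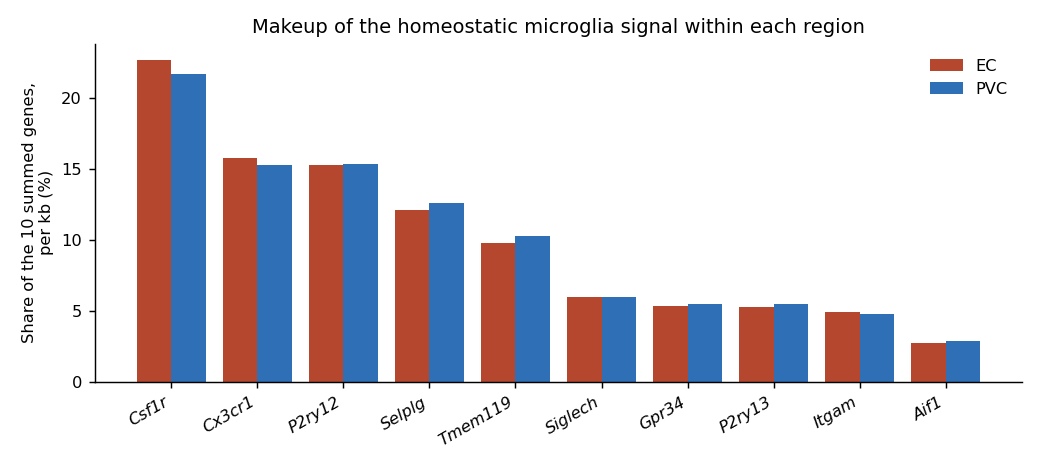
Share of each gene in the 10 homeostatic microglia genes summed per kb of exon, in percent, in the EC (red) and the PVC (blue). The bars of a gene differ by at most 1.03 percentage points, and *Csf1r* leads with 22.7% and 21.7%.

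The 10 genes lie on 7 chromosomes of NCBIM37. Besides *P2ry12* and *P2ry13*, *Tmem119* (chromosome 5, 114243738 to 114250525) and *Selplg* (114267807 to 114280510) are close, with 17282 bases between them on the minus strand. *Siglech* (63023548 to 63034295) and *Itgam* (135206154 to 135271674) are on the plus strand of chromosome 7. *Cx3cr1* is on the minus strand of chromosome 9, from 119957811 to 119977400, and *Aif1* on that of chromosome 17, from 35307936 to 35313013. *Csf1r* is on the plus strand of chromosome 18, from 61265226 to 61291803. *Gpr34* is on the plus strand of chromosome X, from 13209215 to 13217984, within the span of *Cask* but with no shared exon bases. The neighbours *Tmem119* and *Selplg* had a ratio of 0.808 (EC) and 0.817 (PVC) per kb.

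A list of 20 other microglia genes had a median relative ratio of 0.02, and 11 of the 20 were above 0, against 50% of all genes. With the factor set by summed counts, abundant genes or housekeeping genes, 14 to 15 were above 0. The share of all genes above 0 rose as well under those factors, to 54.9%, 56.4% and 59%. *Ptprc*, the pan-leukocyte phosphatase CD45, was the only one past the 25% limit in favour of the EC, with a relative ratio of 0.50. In favour of the PVC, 1 of the 20 was past the limit, which is not named here. Below *Ptprc* came *Olfml3* with 0.25, *Laptm5* with 0.16 and *Fcrls* with 0.15. Among the lowest were *P2ry6* with −0.15, the lipid receptor gene *Trem2* with −0.13 and the lysosomal protease gene *Ctss* with −0.10.

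Markers of the macrophages of the meninges and vessel walls had higher relative ratios than the homeostatic microglia genes. All 9 of their markers were past the 25% limit in favour of the EC under each of the 5 ways of setting the factor, with relative ratios from 0.36 for *Siglec1* to 1.42 for *Lyve1* and a median of 0.76. *Mrc1*, the mannose receptor, had mean normalized counts of 499 (EC) and 115 (PVC). Summed, the 9 markers came to 18.0% of the counts of the 10 homeostatic genes for the EC and 11.6% for the PVC. These sums are of counts, not per kb, so only their change between the regions is of use. *Csf1r*, *Itgam*, *Cx3cr1* and *Aif1* are known to be expressed by such macrophages as well. The first 3 had the highest relative ratios of the 10 genes, while *Aif1*, with 0.02, was below *P2ry12* and *Siglech*. The part of macrophages in these ratios was not tested. Markers of leukocytes from blood were scarce, with mean normalized counts from 0.799 to 30.3 in the EC and from 0.260 to 11.4 in the PVC.

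**Figure D4:**
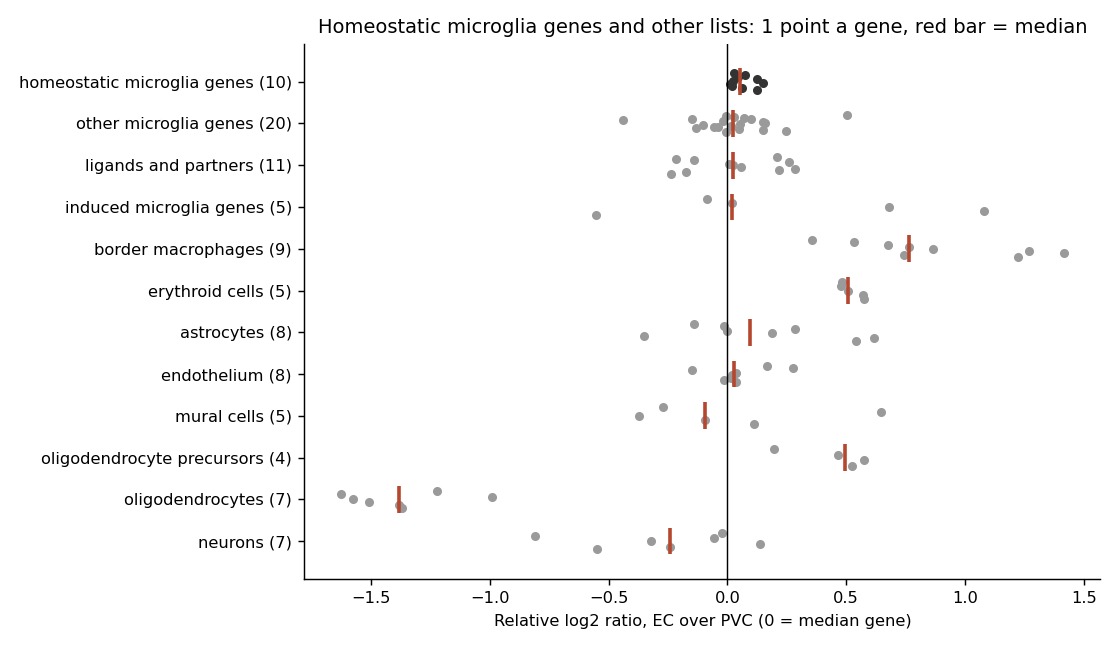
Relative log2 ratio of EC over PVC for the genes of each list whose level reached 10 in both regions (their number in brackets), 1 point a gene and a red bar at the median. The homeostatic microglia genes cluster at 0.05, the border macrophages lie at a median of 0.76 and the oligodendrocyte genes at −1.38.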

How the data were processed

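The data were RNA-sequencing profiles of 2 cortical regions from 29 male mice, as 58 single-end poly(A)+ libraries with 149 bp reads. Per the labels and the methods, the authors aligned reads to mm9 (NCBIM37) with TopHat2 2.0.6 and Bowtie2 2.0.2.0, counted them per gene with HTSeq and normalized each region on its own with DESeq2 1.10.1. The authors deposited 1 table per region. The column used is a signal made by the authors before deposit, the mean over a region's libraries of counts divided by size factors, with no values of single mice, so depth per library and the spread between mice were not analysed here. The other columns hold the authors' comparison of *APOE3/4* with *APOE3/3* (log2 fold change, standard error, statistic and *p*-values) and were not used.

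The log2 ratio of EC over PVC was taken relative to the median of genes at 10 or more in both regions, with no test. A gene 25% higher in a region was past the limit. Exon lengths came from GENCODE M1 on NCBIM37, a later release than the authors' annotation, for 96.5% of these genes. Older symbols were matched through RefSeq for 2 genes, and *Rbfox3* was not matched. Named were all 10 genes, their partners, the 4 highest and 4 lowest other microglia genes, and up to 2 abundant genes per further list, with *Sfpi1*, *Hmgxb3*, *Rspo1*, *Siglec1*, *Lyve1* and *Kcnj13* named after their values were seen. Of the genes this rule names, 2 are not reported here. The genes and lists were chosen with earlier results of these data known, and of the 10 strings searched in promoters those marked in capitals were chosen after their matches were seen, so the results of all 10 are given. Scaling was checked on simulated data with few changed genes, equally likely to go either way. That check cannot show which scaling suits these data. Python 3.11.15, numpy 2.4.6, pandas 2.3.3 and matplotlib 3.10.9 were used. Alternatives were other scalings, count minimums, folds and gene lengths.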

Additional observations from a re-analysis of the deposited data

How the results depend on the processing

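The count of homeostatic microglia genes past the 25% limit was 0 in each direction under every scaling and count minimum tried. Under these settings, 10.4% to 23.7% of all genes were past it in favour of the EC and 9.49% to 17.8% in favour of the PVC. At a fold of 1.1 the count was 1 in favour of the EC, *Csf1r*, against 27.8% of all genes. In favour of the PVC it was 0, against 25.5%. At 1.5 it was 0 in each direction, against 6.78% (EC) and 5.38% (PVC) of all genes. The median relative ratio of 0.053 was 0.099 when 8 housekeeping genes set the factor, whose own median was −0.046, and stayed between 0.043 and 0.062 when any 1 of the 10 genes was left out. It lay between 0.025 and 0.085 under the other scalings and minimums. With no count minimum, 6 of the 10 relative ratios were above 0, against 50% of all genes by construction. Ranking by count with no division by length left 5 genes at the same rank for EC levels and 3 for PVC levels, which follows from the differing exon lengths. With the longest transcript as length, 7 kept their rank in each region. The shares moved with the length used. *Csf1r* made up 34% (EC) and 32.9% (PVC) with no length, and 23% and 22% with the longest transcript. In the EC, *Itgam* had 9.07% and 6.01% in the same order, and *Aif1* 1.22% and 4.42%. The difference between regions for *Csf1r* stayed the largest, at 1.16 and 1.04 percentage points. No paired analysis was possible because the tables hold 1 mean per region and no values of single mice, and for the same reason no replicate could be left out. Values of single genes under other settings were set against a 95% counting interval as a yardstick. Of 100 such values 67 lay within it and 33 outside, and all 33 were shares under another gene length. A change of setting is not counting error, so these numbers do not measure how robust the values are. Exact counting errors of single libraries, spread between mice and any effect of genotype on these genes were not analysed here.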

Other observations

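Markers of some other cell types had relative ratios well outside the range of the homeostatic microglia genes. All 7 oligodendrocyte genes were past the 25% limit in favour of the PVC, with a median relative fold of 2.60. *Mbp*, which encodes a major myelin protein, had mean normalized counts of 23278 (EC) and 32366 (PVC). Markers of their precursors lay on the other side, with 3 of 4 past the limit in favour of the EC and a relative ratio of 0.52 for *Pdgfra*. Set against the summed counts of the 10 homeostatic microglia genes, the oligodendrocyte genes came to 295% (EC) and 813% (PVC), as counts and not per kb.

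Endothelial genes were near the median gene, with 0 of 8 past the limit and a median relative ratio of 0.03, and *Flt1* had a relative ratio of 0.01. The 5 erythroid genes were all past the limit in favour of the EC, with relative ratios from 0.48 to 0.57. Of 8 astrocyte genes 2 were past the limit in favour of the EC and 1 in favour of the PVC, against 2 and 0 when abundant genes set the factor and 3 and 0 when housekeeping genes did, and the abundant glutamate transporter gene *Slc1a2* was at −0.00. Of 5 mural cell genes 1 was past the limit each way. Of 7 neuronal genes 2 were past the limit in favour of the PVC, including *Snap25* with −0.55. Among genes induced in activated microglia, 5 of 9 reached the minimum count, 2 of them past the limit in favour of the EC and 1 in favour of the PVC. *Axl*, with mean normalized counts of 2530.0 (EC) and 1343 (PVC), had a relative ratio of 0.02. *Spp1*, which other brain cells also express, had 1177 and 299.7 and the highest relative ratio of the 5, 1.08. Of the dentate gyrus markers 2 of 4 reached the minimum, with 0 past the limit, and of the choroid plexus markers *Ttr* had a relative fold of 4.53 in favour of the PVC, *Kcnj13* one of 2.74 in favour of the EC and *Kl* a relative ratio of 0.02.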
